A study of Mus musculus with 9 samples.

Results

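The genes described here are 9 genes of fatty acid use and fuel choice in muscle: Pdk4, Ucp3, Rxrg, Acads, Acadm, Acadl, Eci1, Lpl and Cd36. They were found as every probe set that the array's annotation gives to exactly 1 of these genes. All 9 genes had a probe set, 12 in all, of 12422 probe sets on the array that are not controls. Acads, Lpl and Cd36 had more than 1 each. Of the 12, 11 passed the filter on dim probe sets and were tested. The probe set left out, 161704_r_at of Cd36, lay at the floor in 7 of 9 arrays and never above 4.20.

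Muscle fibres burn fatty acids that lipoprotein lipase (Lpl) frees from blood lipoproteins and that the membrane protein Cd36 helps to take up. In the mitochondria the acyl-CoA dehydrogenases (Acads, Acadm and Acadl, for short, medium and long chains) open each turn of beta-oxidation, and the isomerase Eci1 prepares unsaturated chains for it. Pdk4 phosphorylates and so shuts off pyruvate dehydrogenase, which spares glucose when fat is burned, and is known to be induced in fasted muscle. Ucp3 is an inner-membrane carrier of muscle mitochondria that is also induced by fasting, and Rxrg is a retinoid X receptor, a partner of the nuclear receptors that switch on many of these genes.

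RNA of the gastrocnemius, a muscle of the calf, was read from 9 mice on 1 Affymetrix U74Av2 array each. Mice of the mdx genotype (n = 2, males of 15 and 13 weeks) carry a mutation in Dmd, the gene for dystrophin, which ties the fibre's cytoskeleton to its membrane. The mdx x utrn-/- mouse (n = 1, male of 5 weeks) lacks utrophin, a relative of dystrophin, as well. The full-length human dystrophin gene was added to both backgrounds, in hDMD x mdx mice (n = 2, males of 24 and 10 weeks) and in a hDMD x mdx x utrn-/- mouse (n = 1, male of 9 weeks). The hDMD mouse (n = 1, male of 11 weeks) carried the human gene beside its own. The wild-type mice (n = 2, a female and a male of 7 weeks, mice 1 and 2) had a mixed C57Bl/DBA2/129OLA-Ev background. The strain of the other genotypes is not given in the sources used here. Both wild-type mice were younger than all others but the mdx x utrn-/- mouse, so comparisons with them also compare ages. Each value is 1 mouse, and where a genotype has 1 mouse it has no replicate check.

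Levels are quantile normalised intensities as log2(value + 16), which has its floor at 4, and they compare mice for 1 probe set, not genes with each other. A level is given with its SD and a difference with its SE. The array medians before normalisation ran from 1.47 to 45.6. The spike-in controls, bacterial and phage RNAs added before hybridisation, separated 3 bright arrays (wild-type 1, hDMD x mdx 1 and mdx 2) from 6 dim ones. The lowest bright spike-in median was 4.87 times the highest dim one. The 3 genotypes with 2 mice have 1 array of each kind, and differences within each class are given beside pooled ones. All 14 skeletal muscle fibre markers were kept, and their summed intensity ran from 23200 to 26800, so signal of muscle fibres was high in every array. Quantile normalisation makes the brightest values alike across arrays, so this sum cannot show whether fibre content was alike. The probe set for mouse Dmd lay at 4.44 to 4.47 without and 4 to 4.95 with dystrophin. Those for Utrn lay at 4.18 and 5.64 in mdx x utrn-/-, 4.67 and 5.27 in hDMD x mdx x utrn-/-, and 4.15 to 6.15 in the other mice. None of them separates the genotypes, so they do not check the labels. In whole muscle, fewer cells of a type and less RNA per cell cannot be told apart.

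**Figure D1:**
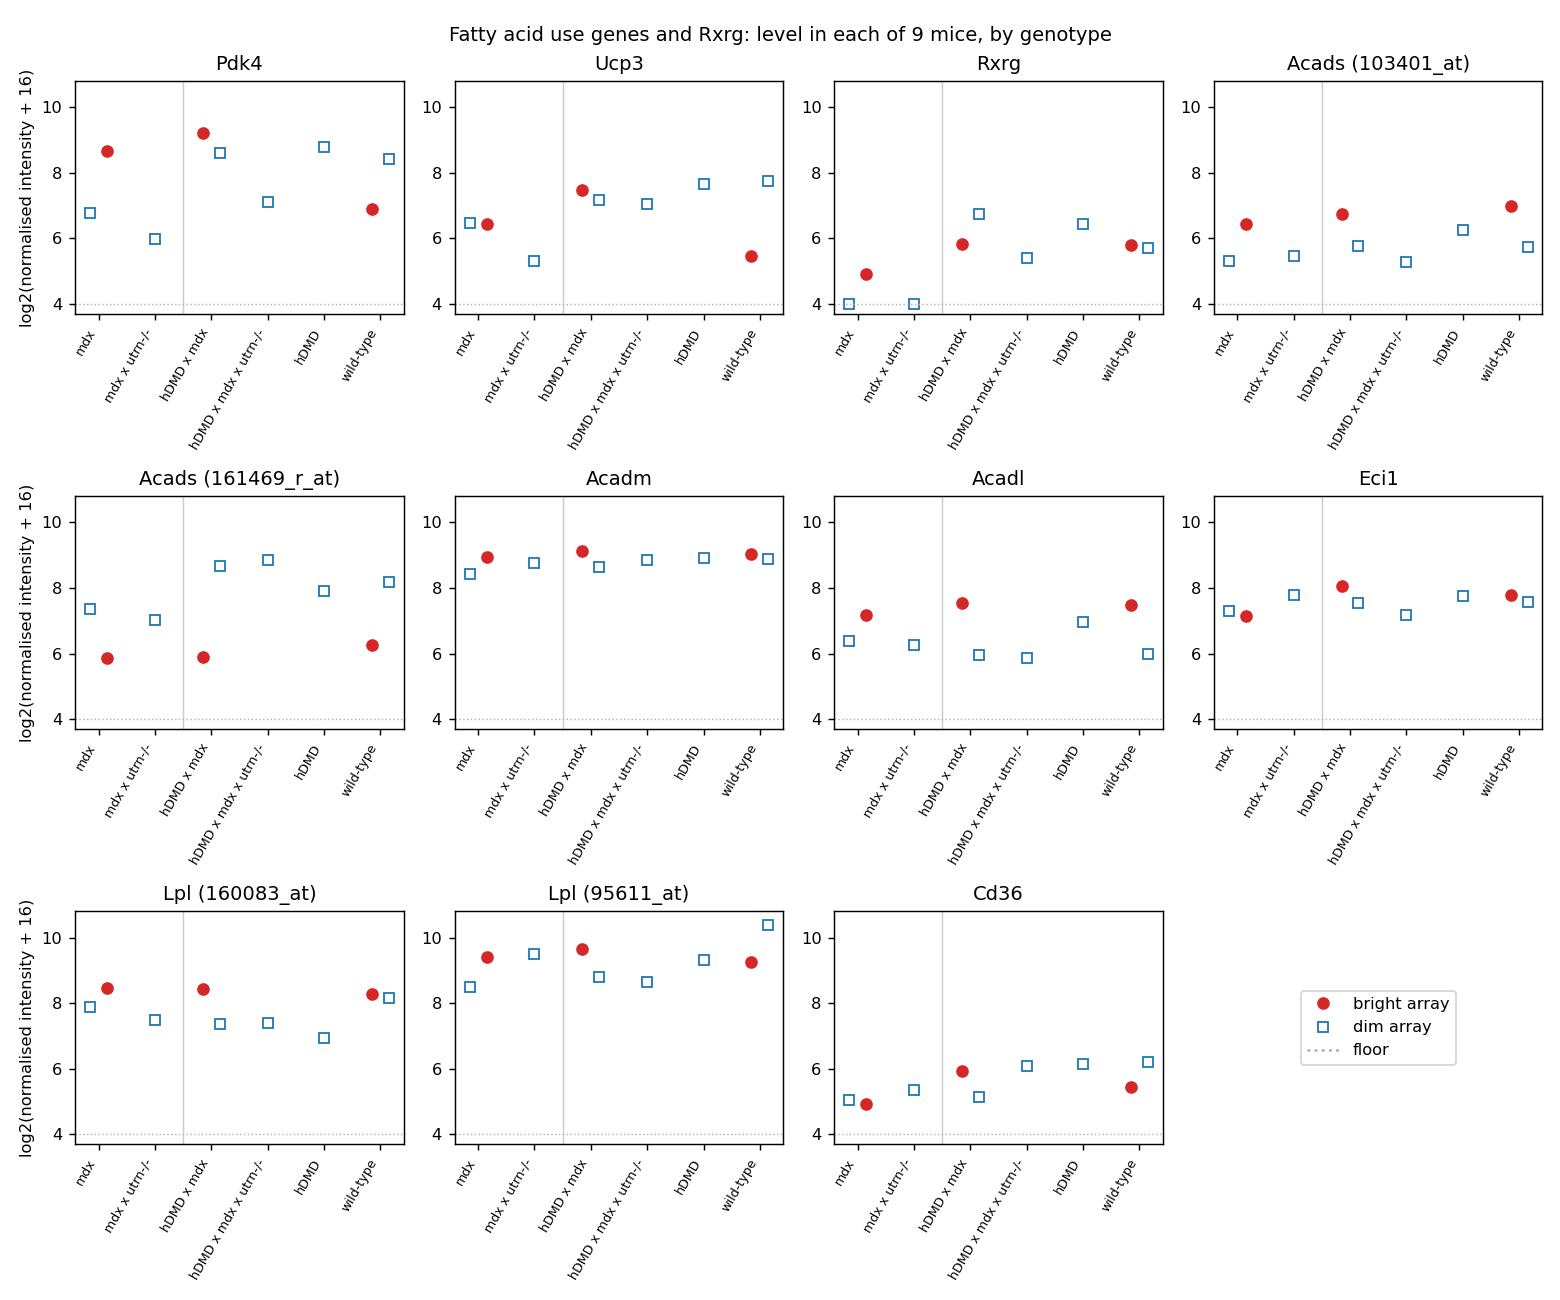
Level of each of the 11 measured probe sets in each of 9 mice, as log2(normalised intensity + 16), by genotype, with genotypes that lack dystrophin left of the grey line. Rxrg lies at 4 to 4.92 in the 3 mice without dystrophin and at 5.40 to 6.73 in the other 6. The Acads probe set 161469_r_at is lower in all 3 bright arrays than in all 6 dim ones.

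Rxrg (Entrez gene 20183, chromosome 1 from 167598362 to 167639623 in GRCm38.p6) had lower values in muscle without dystrophin. Its level was 4 in mdx 1, 4.92 in mdx 2 and 4 in the mdx x utrn-/- mouse. With dystrophin, it was 5.82 and 6.73 in hDMD x mdx 1 and 2, 5.40 in the hDMD x mdx x utrn-/- mouse, 6.45 in the hDMD mouse, and 5.81 and 5.71 in wild-type 1 and 2. The groups did not overlap, and 2 of the 3 mice without dystrophin were at the floor, with deposited intensities of -2.93 and -3.19. Between 3 mice without and 6 with dystrophin, the means were 4.31 ± 0.53 and 5.99 ± 0.50, a difference of -1.68 ± 0.33. This gap was -0.89 among bright arrays and -2.07 among dim ones. This did not pass over all 7453 probe sets (limma, adjusted p 0.154), although Rxrg ranked 15 by p among them. The size of the difference depended on the pseudocount: with a pseudocount of 1 in place of 16 it was -4.26 ± 0.84, and with 64 it was -0.72 ± 0.17.

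On the mdx backgrounds, the 3 carriers of the human gene averaged 5.98 ± 0.68 for Rxrg and the 3 non-carriers 4.31 ± 0.53. The difference, fitted with utrophin genotype as a term, was 1.68 ± 0.38, with 0.90 among bright arrays and 2.06 among dim ones, and did not pass (limma, adjusted p 0.396). This comparison shares its 3 mice without dystrophin with the class comparison, so the values are not independent. In hDMD x mdx against mdx the difference was 1.81 ± 0.47, and in mdx against wild-type it was -1.30 ± 0.47 (limma, adjusted p 1 for both). The carriers of the human gene differed from wild-type by 0.28 ± 0.41 (limma, adjusted p 0.935). Ordered by level, the genotypes were hDMD (6.45), hDMD x mdx (6.27 ± 0.64), wild-type (5.76 ± 0.08), hDMD x mdx x utrn-/- (5.40), mdx (4.46 ± 0.65) and mdx x utrn-/- (4). The step from hDMD to hDMD x mdx and that from mdx to mdx x utrn-/- were smaller than the SD of the genotype with 2 mice. The step from hDMD x mdx to wild-type was smaller than the SD of hDMD x mdx but not that of wild-type, and the other 2 steps were larger than the SD of the genotype with 2 mice.

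Pdk4 (Entrez 27273, chromosome 6 from 5483351 to 5496278) had the widest range of the 11 probe sets, 3.23. Its level was 6.79 in mdx 1, 8.66 in mdx 2 and 5.99 in the mdx x utrn-/- mouse. With the human gene it was 9.22 in hDMD x mdx 1, 8.62 in hDMD x mdx 2, 7.12 in hDMD x mdx x utrn-/- and 8.79 in hDMD, and in wild-type 1 and 2 it was 6.89 and 8.41. Mice of 1 genotype lay far apart, in mdx (7.73 ± 1.32) as in wild-type (7.65 ± 1.07), and less so in hDMD x mdx (8.92 ± 0.43). Mice without and with dystrophin differed by -1.03 ± 0.62, but by 0.61 among bright arrays and -1.85 among dim ones (limma, adjusted p 0.999). The pooled direction therefore did not hold in the bright arrays, where 1 mdx mouse was set against 2 others. It was -1.78 without mdx 2 and -0.45 without mdx x utrn-/-.

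Within each brightness class, every carrier of the human gene on an mdx background had more Pdk4 signal than every non-carrier. In the bright arrays the values were 9.22 in the carrier and 8.66 in the non-carrier. In the dim arrays they were 8.62 and 7.12 in carriers and 6.79 and 5.99 in non-carriers. Pooled, the 3 carriers averaged 8.32 ± 1.08 and the 3 non-carriers 7.15 ± 1.37, and the groups overlapped. The difference of 1.17 ± 0.49 had a limma adjusted p of 0.876, and it was 0.64 without mdx 1 and 1.70 without mdx 2. In hDMD x mdx against mdx it was 1.19 ± 0.73 (limma, adjusted p 1), with 0.26 without mdx 1 and 2.13 without mdx 2. With array brightness as a block, carriers and non-carriers differed by 1.17 ± 0.29 (limma, adjusted p 0.278), which did not pass either. For hDMD x mdx against mdx the block gave 1.19 ± 0.72 (limma, adjusted p 0.777). Between mdx and wild-type the difference was 0.08 ± 0.73 (limma, adjusted p 1), with 1.77 among bright arrays and -1.61 among dim ones. The sign of that comparison thus turned on which mouse of each genotype was taken.

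Ucp3 (Entrez 22229, chromosome 7 from 100472991 to 100486432) had its lowest level, 5.30, in the mdx x utrn-/- mouse, and both mdx mice were close together at 6.48 and 6.45. It was 7.49 and 7.18 in hDMD x mdx 1 and 2, 7.04 in hDMD x mdx x utrn-/- and 7.65 in hDMD. Wild-type 1, the female, was at 5.46 and wild-type 2 at 7.74, the lowest and the highest of the mice with dystrophin. All 3 carriers on mdx backgrounds were above all 3 non-carriers, with means of 7.23 ± 0.23 and 6.07 ± 0.67. The difference was 1.16 ± 0.30, with 1.03 among bright arrays and 1.22 among dim ones, and did not pass (limma, adjusted p 0.543, and 0.245 with the block). Over the dystrophin classes Ucp3 differed by -1.02 ± 0.47 (limma, adjusted p 0.905), with -0.02 among bright arrays and -1.51 among dim ones. It ran from -1.34 without wild-type 1 to -0.63 without mdx x utrn-/- as each mouse was left out (limma, adjusted p 0.327 and 0.999). In mdx against wild-type the difference was -0.13 ± 0.69, with 0.99 among bright arrays and -1.26 among dim ones (limma, adjusted p 1). By genotype the levels ran from hDMD (7.65) through hDMD x mdx (7.33 ± 0.22), hDMD x mdx x utrn-/- (7.04), wild-type (6.60 ± 1.61) and mdx (6.46 ± 0.02) to mdx x utrn-/- (5.30). All of these levels lie within 1 SD of the wild-type mean.

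**Figure D2:**
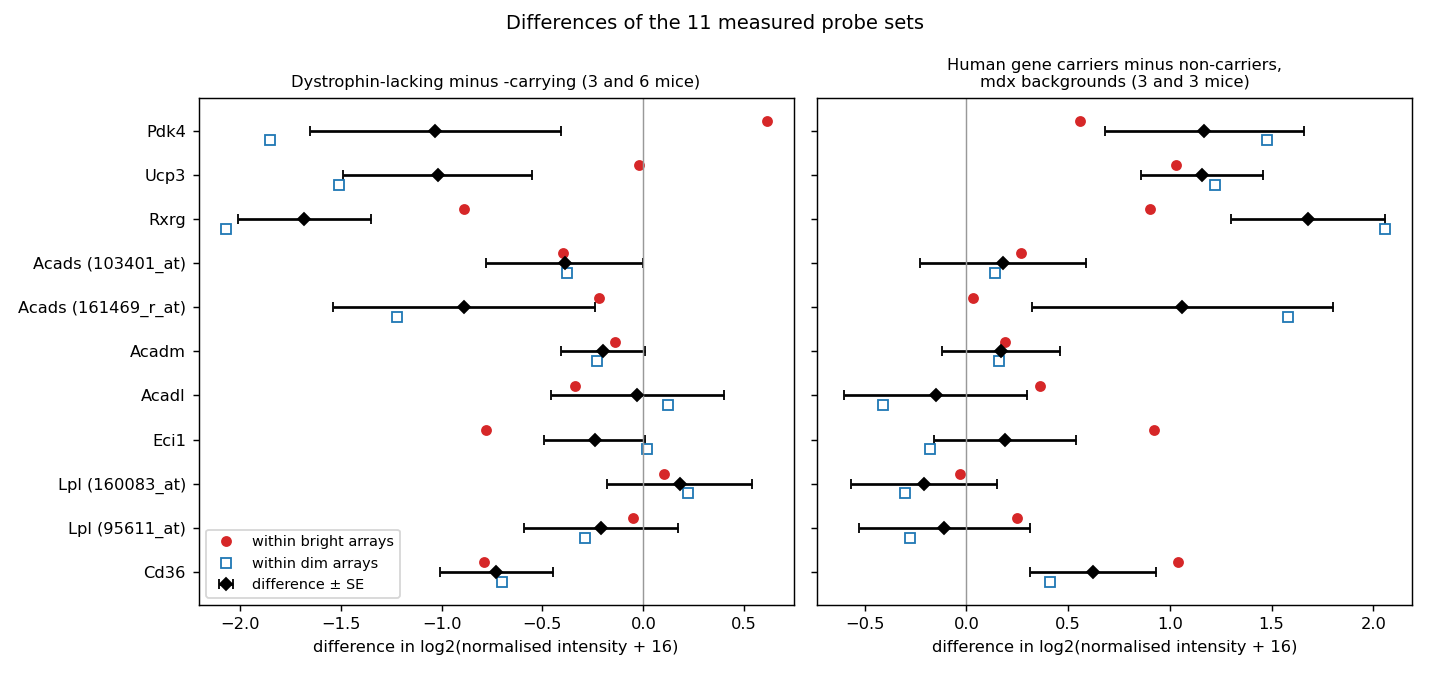
Differences in log2(normalised intensity + 16) for the 11 measured probe sets, without minus with dystrophin (left, 3 and 6 mice) and carriers minus non-carriers of the human gene on mdx backgrounds (right, 3 and 3 mice). Black diamonds are limma estimates ± SE, red circles the difference within bright arrays and open squares within dim arrays. Rxrg has the largest difference of the 11 in both panels on this scale (-1.68 and 1.68), but not with a pseudocount of 64, where Pdk4 is at -0.79 and 0.91 and Rxrg at -0.72 and 0.73, and on the right Pdk4, Ucp3, Rxrg and Cd36 lie above 0 in both brightness classes, as do both Acads probe sets and Acadm.

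The stretch of 250 bases before a gene's start is shown for Rxrg, Ucp3 and Pdk4, the genes with the widest differences between carriers and non-carriers on mdx backgrounds with a pseudocount of 16. Retinoid X receptors and their partners bind pairs of the core site AGGTCA. This site was searched on both strands, together with a looser pair, AGGNCA and again AGGNCA with 1 base between, which overlaps with the core site where the letters match. Sequences are from RefSeq, build GRCm38.p6, written 5′ to 3′ along the gene, and capitals mark AGGTCA.
Rxrg, downstream start, chr1:167618015-167618264, plus strand: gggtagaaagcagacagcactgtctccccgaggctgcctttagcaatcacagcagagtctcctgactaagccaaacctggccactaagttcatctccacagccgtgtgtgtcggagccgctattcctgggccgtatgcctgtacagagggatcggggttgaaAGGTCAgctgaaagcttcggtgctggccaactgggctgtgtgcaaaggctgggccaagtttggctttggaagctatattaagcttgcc
Ucp3, chr7:100472741-100472990, plus strand: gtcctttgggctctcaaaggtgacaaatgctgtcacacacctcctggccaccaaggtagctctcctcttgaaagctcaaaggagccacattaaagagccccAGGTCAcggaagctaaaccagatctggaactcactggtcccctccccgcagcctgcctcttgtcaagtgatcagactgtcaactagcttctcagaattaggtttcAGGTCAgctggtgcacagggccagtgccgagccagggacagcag
Pdk4, chr6:5496279-5496528, minus strand: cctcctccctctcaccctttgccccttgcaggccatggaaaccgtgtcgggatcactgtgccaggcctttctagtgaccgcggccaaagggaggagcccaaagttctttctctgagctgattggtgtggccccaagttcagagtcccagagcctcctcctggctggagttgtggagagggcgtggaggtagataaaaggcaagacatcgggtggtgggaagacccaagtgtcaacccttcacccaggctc
The Ucp3 stretch held the core site at positions -149 to -144 and -44 to -39 from the start, and the Rxrg stretch at -88 to -83. The Pdk4 stretch and that of the upstream Rxrg start held none. Of the 9 genes, 8 matched a promoter in the table, with 9 stretches, of which 4 held the core site (Rxrg, Ucp3, Acadm and Cd36). It was found in 14% of all 32851 stretches of the same length, and at least 2 copies in 1.36%. None of the 9 stretches held the pair, against 0.338% of all. A match is a description of the letters and does not show that a factor binds there.

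Of the genes of uptake, Cd36 (Entrez 12491, chromosome 5 from 17781690 to 17888959), read on probe set 93332_at, had low values in muscle without dystrophin. It was at 5.04 and 4.91 in mdx 1 and 2 and at 5.35 in mdx x utrn-/-. With dystrophin it was at 5.94 and 5.15 in hDMD x mdx 1 and 2, 6.07 in hDMD x mdx x utrn-/-, 6.13 in hDMD, and 5.44 and 6.20 in wild-type 1 and 2. The groups overlapped through hDMD x mdx 2. The means were 5.10 ± 0.23 without (n = 3) and 5.82 ± 0.43 with dystrophin (n = 6), a difference of -0.73 ± 0.28 that did not pass (limma, adjusted p 0.8). It was much the same within the bright (-0.79) and the dim arrays (-0.70). In mdx against wild-type Cd36 differed by -0.85 ± 0.43, and in hDMD x mdx against mdx by 0.57 ± 0.43, both with a limma adjusted p of 1.

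Lpl (Entrez 16956, chromosome 8 from 68880555 to 68906932) was measured by 2 probe sets that did not order the mice alike. On 95611_at, the brighter one, wild-type 2 was highest at 10.37, followed by hDMD x mdx 1 at 9.66, and mdx 1 was lowest at 8.49. On 160083_at, mdx 2 was highest at 8.46 and the hDMD mouse lowest at 6.95. Without against with dystrophin, the difference was -0.21 ± 0.38 on the first and 0.18 ± 0.36 on the second, with opposite signs (limma, adjusted p 1 for both). Carriers of the human gene differed from wild-type by -0.75 ± 0.48 on the first and -0.80 ± 0.40 on the second (limma, adjusted p 0.929 for both). Within the bright arrays these differences were 0.40 and 0.15, and within the dim ones -1.45 and -0.91. Lpl and Cd36 are also made by fat cells, and Cd36 by the cells of capillaries.

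Among the beta-oxidation enzymes, Acadm (Entrez 11364, chromosome 3 from 153922353 to 153944643) hardly varied. Its levels ran from 8.42 in mdx 1 to 9.13 in hDMD x mdx 1, and its SD over the 9 mice was below that of all but 5.61% of the probe sets tested. Without against with dystrophin it averaged 8.71 ± 0.26 and 8.91 ± 0.16, a difference of -0.20 ± 0.21 (limma, adjusted p 1). Eci1 (Entrez 13177, chromosome 17 from 24426683 to 24439316) had a similarly small range, from 7.14 in mdx 2 to 8.06 in hDMD x mdx 1. It was lower in mdx (7.29 and 7.14) than in both hDMD x mdx (8.06 and 7.55) and wild-type mice (7.79 and 7.58), but without utrophin the order was turned, with 7.19 in the hDMD x mdx x utrn-/- mouse and 7.80 in the mdx x utrn-/- mouse. The differences were 0.59 ± 0.35 for hDMD x mdx against mdx and -0.47 ± 0.35 for mdx against wild-type (limma, adjusted p 1 for both).

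Acadl (Entrez 11363, chromosome 1 from 66830839 to 66863309) and Acads (Entrez 11409, chromosome 5 from 115110299 to 115119346) differed mainly with array brightness. Acadl lay at 7.17 to 7.53 where arrays were bright and 5.86 to 6.97 where they were dim. It averaged 7.39 on the 3 bright arrays and 6.24 on the 6 dim ones, and its difference without against with dystrophin was -0.03 ± 0.43 (limma, adjusted p 1). The 2 Acads probe sets went opposite ways with brightness: 103401_at averaged 6.72 on bright arrays and 5.64 on dim ones, and 161469_r_at 5.99 and 7.99. Within the dim arrays 161469_r_at was at 7.35 and 7.01 in mdx 1 and mdx x utrn-/-. It was at 8.67, 8.84, 7.90 and 8.17 in hDMD x mdx 2, hDMD x mdx x utrn-/-, hDMD and wild-type 2, all higher. Its difference without against with dystrophin was -0.89 ± 0.65, and -0.89 ± 0.28 with brightness as a block (limma, adjusted p 1 and 0.326). On 103401_at it was -0.39 ± 0.39, and -0.39 ± 0.22 with the block (limma, adjusted p 1 and 0.617), so both probe sets were lower on average without dystrophin and neither passed.

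Read together, none of the 11 probe sets passed in any of the 5 comparisons, with or without brightness as a block. Without against with dystrophin, 9 of 7453 probe sets passed (0.121%). In this comparison 10 of the 11 had negative differences, with a median of -0.73 over the 9 genes, each by its probe set of highest mean, against -0.01 and 51.7% negative over all tested. The 9 genes were chosen with earlier results of these data known, so their direction here and below is no independent evidence. For Acads that was 161469_r_at (-0.89), whose levels went with array brightness. If 103401_at is taken instead, the median becomes the value of that probe set, -0.39. Rxrg was the 1 probe set whose groups did not overlap in the lower direction, against 1.42% of all, and 0 did not overlap in the higher direction, against 1.53%. An unadjusted p under 0.05 was reached by 2 of the 11, Rxrg and Cd36, against 5.58% of all.

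Between carriers and non-carriers on mdx backgrounds 0 of 7453 passed (0%), 407 had an unadjusted p under 0.05 (5.46%), and 4 passed with the block, all lower and none of them described here. Of the 9 genes, 7 had positive differences, with a median of 0.62, against 0.02 and 48.5% negative over all tested. This median falls to the 0.19 of Eci1 if Acads is taken by 103401_at (0.18) instead of 161469_r_at (1.06). Groups did not overlap in the higher direction for 2 of 11 probe sets, Ucp3 and Rxrg, against 5.21% of all, and in the lower direction for 0, against 5.37%. Unadjusted p values under 0.05 were found for 3, Rxrg, Ucp3 and Pdk4. With age as a covariate these differences were 1.92 ± 0.38 for Rxrg, 1.08 ± 0.37 for Ucp3 and 1.10 ± 0.54 for Pdk4. The effect of the human gene without utrophin minus that with utrophin was -0.41 ± 0.81 for Rxrg, 0.87 ± 1.19 for Ucp3 and -0.06 ± 1.27 for Pdk4. Over the 11 it ran from -1.20 ± 0.60 for Eci1 to 1.15 ± 1.80 for Acads 161469_r_at. The utrophin-lacking side has 1 mouse per genotype, so this cannot show whether the effects were alike. On that side, the carrier minus non-carrier values were 1.40 for Rxrg, 1.74 for Ucp3 and 1.14 for Pdk4. They were also positive for Acads 161469_r_at (1.83), Cd36 (0.72) and Acadm (0.09). The other 5 were negative, at -0.87 for Lpl 95611_at, -0.61 for Eci1, -0.41 for Acadl, -0.16 for Acads 103401_at and -0.09 for Lpl 160083_at.

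In hDMD x mdx against mdx 0 of 7453 passed (0%, with 213 at an unadjusted p under 0.05, or 2.86%). Of the 11 probe sets 4 had groups that did not overlap in the higher direction (Ucp3, Rxrg, Eci1 and Cd36), against 14% of all, and 0 in the lower, against 13%. In mdx against wild-type, which shares the mdx mice with this comparison, 0 passed (0%, with 130 at an unadjusted p under 0.05, or 1.74%). Here 3 of 11 did not overlap in the lower direction (Rxrg, Eci1 and Cd36), against 10.7% of all, and 0 in the higher, against 11.2%. The median over the 9 genes was 0.59 and -0.47 in these comparisons, against 0.02 and 0.00 over all tested. Between carriers of the human gene and wild-type 0 passed (0%, with 252 at an unadjusted p under 0.05, or 3.38%). None of the 11 was separate between these groups, against 5.13% of all higher and 4.24% lower, and the median was 0.09.

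**Figure D3:**
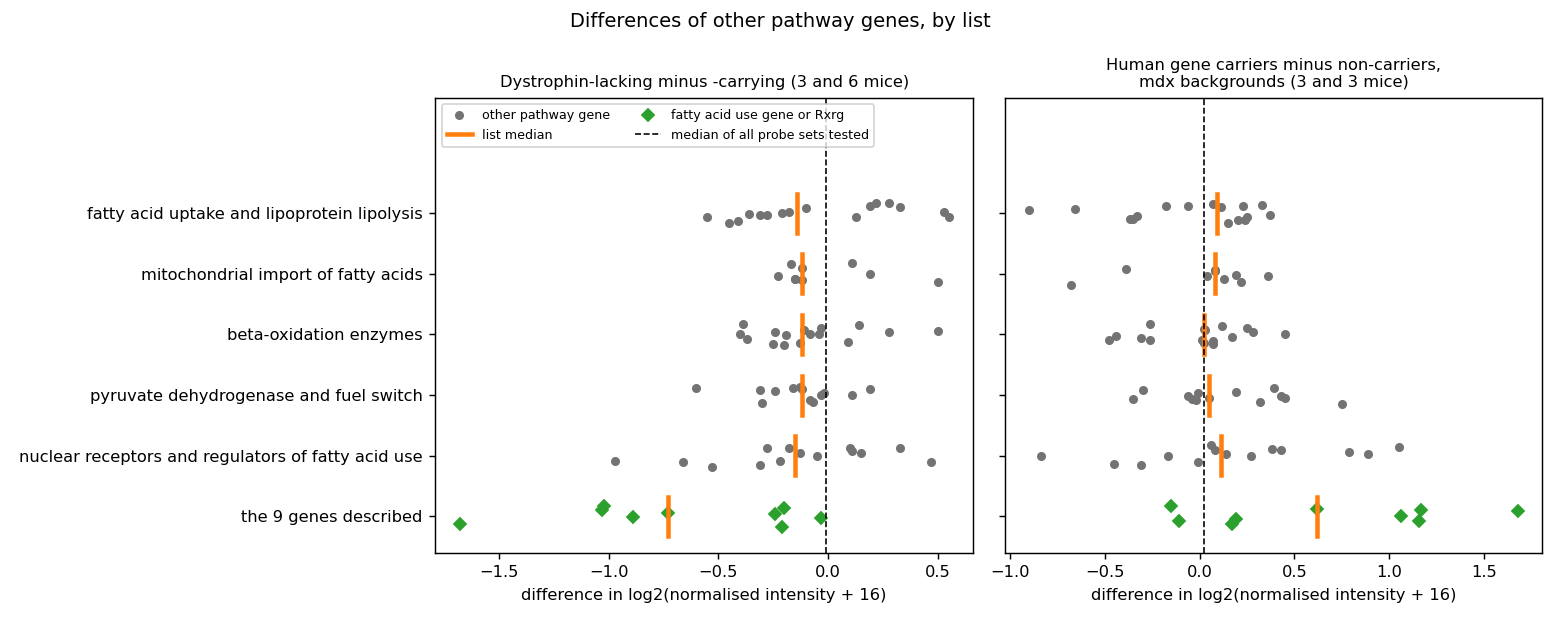
Differences in log2(normalised intensity + 16) of other pathway genes (grey circles), 1 row per list, with the list median (orange bar), for mice without minus with dystrophin (left) and carriers minus non-carriers on mdx backgrounds (right). Green diamonds in the lowest row are the 9 genes described, and the dashed line is the median of all probe sets tested (-0.01 and 0.02). List medians lie between -0.15 and -0.12 on the left and between 0.02 and 0.11 on the right.

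Other genes of the pathway were read from 5 lists of 107 genes, of which 77 had a probe set and 67 were tested. By limma, 0 passed in each of the 5 comparisons. Without against with dystrophin 47 of the 67 had negative differences, with a median of -0.13, against -0.01 and 51.7% negative over all tested. Only 1 of the 67 had an unadjusted p under 0.05, a smaller share than the 5.58% of all tested. That was Slc2a4, the insulin-responsive glucose transporter of muscle. It was at 8.27 and 8.38 in mdx 1 and 2 and 8.58 in mdx x utrn-/-, below the 8.66 to 9.36 of the mice with dystrophin. Its difference was -0.60 ± 0.21 (limma, adjusted p 0.761), with -0.79 among bright arrays and -0.50 among dim ones. On mdx backgrounds carriers and non-carriers averaged 9.16 ± 0.17 and 8.41 ± 0.16 for Slc2a4, a difference of 0.75 ± 0.27 (limma, adjusted p 0.795). It was also the 1 gene of the lists with an unadjusted p under 0.05 there (5.46% of all tested) and in hDMD x mdx against mdx (2.86%). In mdx against wild-type there were 0 (1.74% of all), and in carriers against wild-type 0 (3.38%). Hk2, the hexokinase that traps glucose in the fibre, differed by 0.45 ± 0.26 between carriers and non-carriers on mdx backgrounds (limma, adjusted p 0.984). It lay at 8.99 to 9.10 in carriers and 8.50 to 8.80 in non-carriers. Dlat, a subunit of the pyruvate dehydrogenase complex that Pdk4 inhibits, differed by 0.39 ± 0.28 (limma, adjusted p 0.986). Between carriers and non-carriers, 43 of the 67 had positive and 24 negative differences, with a median of 0.07, against 0.02 over all tested. The negative ones included Cpt1a (-0.68 ± 0.30), Fabp4 (-0.90 ± 0.53), Plin2 (-0.66 ± 0.41) and Acaa1a (-0.48 ± 0.30), with limma adjusted p of 0.93 to 0.986.

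Of 14 regulators tested, 9 had negative differences without against with dystrophin, with a median of -0.15. Rxra, the retinoid X receptor of many tissues, was at 5.40 ± 0.85 without and 6.06 ± 0.62 with dystrophin, a difference of -0.66 ± 0.42 (limma, adjusted p 1). On mdx backgrounds carriers and non-carriers averaged 6.29 ± 0.76 and 5.40 ± 0.85 for it, a difference of 0.89 ± 0.42 (limma, adjusted p 0.953). The mdx x utrn-/- mouse stood with the carriers here, at 6.38. Nr4a1, an orphan nuclear receptor induced by activity, differed by -0.97 ± 0.48 without against with dystrophin (limma, adjusted p 0.957) and by 1.05 ± 0.54 in carriers against non-carriers (limma, adjusted p 0.979). Mef2c, of the same list, went the other way, with 0.47 ± 0.29 without against with dystrophin (limma, adjusted p 0.999). In carriers against non-carriers Mef2c differed by -0.45 ± 0.28 (limma, adjusted p 0.986) and Nr1d1 by 0.79 ± 0.37 (limma, adjusted p 0.952). Ppara, the receptor that drives fatty acid oxidation genes, differed by 0.54 ± 0.44 in mdx against wild-type, and Ppargc1a, a coactivator of mitochondrial genes, by 0.52 ± 0.38 in hDMD x mdx against mdx (limma, adjusted p 1 for both).

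Of 16 beta-oxidation enzymes tested, 12 had negative differences without against with dystrophin, with a median of -0.12. Hadhb, a subunit of the trifunctional protein for long chains, differed by -0.40 ± 0.22 (limma, adjusted p 0.984) and lay at 8.64 to 8.98 without and 8.82 to 9.52 with dystrophin. Ech1, an isomerase of unsaturated chains, differed by -0.39 ± 0.24 (limma, adjusted p 1), and Gcdh, a dehydrogenase of amino acid breakdown in the same list, by 0.50 ± 0.30 (limma, adjusted p 0.999). In mdx against wild-type Echs1, the hydratase of short chains, differed by -0.69 ± 0.36 (limma, adjusted p 1). Without against with dystrophin it differed by 0.09 ± 0.33, as the mdx x utrn-/- mouse had the highest Echs1 level of all, 8.33. Of 9 import genes 6 had negative differences without against with dystrophin. Cpt2, which returns fatty acids from carnitine to coenzyme A, differed by -0.23 ± 0.25, and Cpt1a, the liver form of the enzyme that loads them onto carnitine, by 0.50 ± 0.45 (limma, adjusted p 1 for both). Of 16 uptake genes 9 were negative. Acsl5, which activates fatty acids, differed by 0.53 ± 0.31 (limma, adjusted p 0.999), and Plin4, a lipid droplet protein, by -0.55 ± 0.42 (limma, adjusted p 1).

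The uptake list had its widest gap in mdx against wild-type, with a median of -0.54 over 16 genes. Within the bright arrays it was 0.16 and within the dim ones -1.07. Plin4 differed by 0.06 among bright arrays and -2.27 among dim ones, and Mgll, a monoglyceride lipase, by 0.07 and -2.21. Those dim arrays are mdx 1 and wild-type 2, and adipocyte markers were high in wild-type 2.

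**Figure D4:**
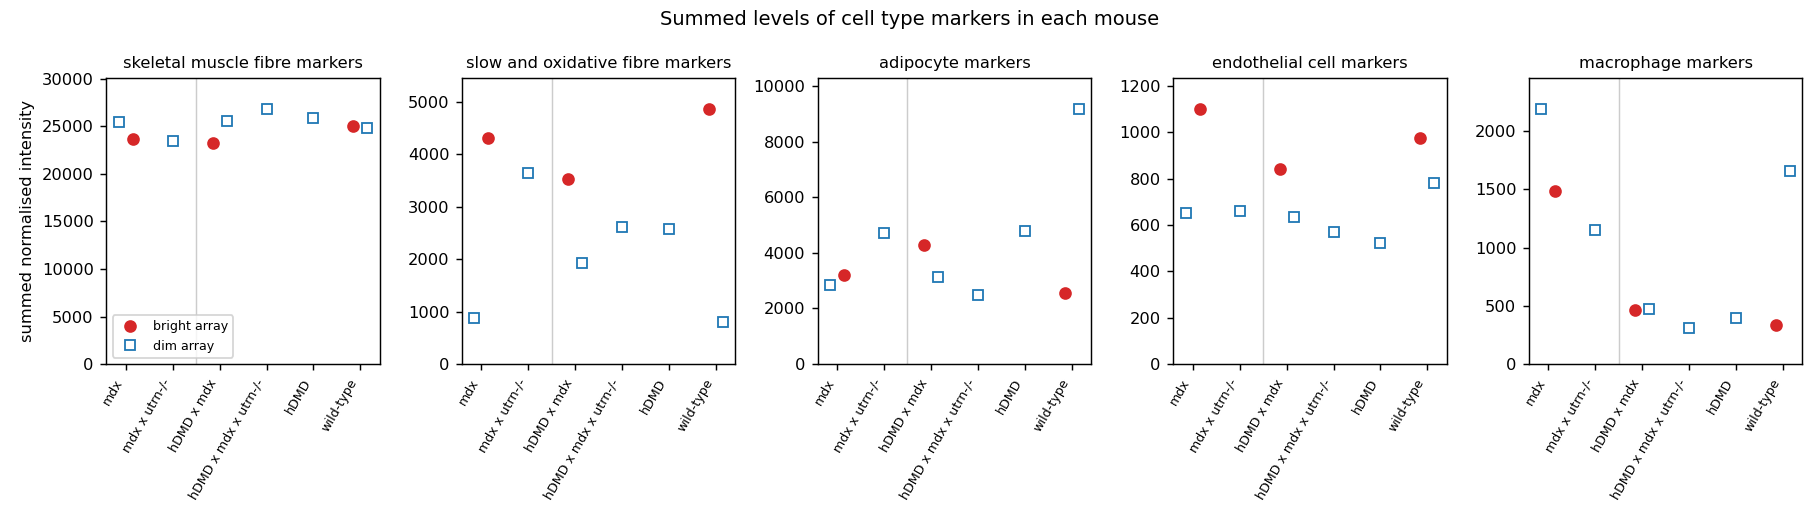
Summed normalised intensity of the markers of muscle fibres, slow and oxidative fibres, adipocytes, endothelial cells and macrophages in each of 9 mice, by genotype, with genotypes that lack dystrophin left of the grey line. Circles are bright and squares dim arrays. Wild-type 2 has the highest adipocyte sum (9170), and macrophage sums are highest in the 3 mice without dystrophin (1150 to 2190) and in wild-type 2 (1660).

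Markers of other cells moved with some of these values, and their part in the results was not tested. Adipocyte markers (11 of 15 measured, none at the floor in any array) summed to 2830 and 3210 in mdx, 4710 in mdx x utrn-/-, 2470 to 4300 in carriers of the human gene on mdx backgrounds, 4800 in hDMD, and 2560 and 9170 in wild-type 1 and 2. Bright markers such as Car3 (9.81 to 10.87) weigh most in this sum. By the median of the 11, each centred on its own mean, wild-type 2 was also highest (1.63). The hDMD x mdx x utrn-/- mouse was lowest by this median (-1.35), and wild-type 1 was at -0.47. Car3 did not follow it, at 10.63 in the hDMD x mdx x utrn-/- mouse. The adipocyte sums therefore depend in part on Car3 and are not a measure of fat cells alone. Wild-type 2 also had the highest level of Lpl on 95611_at, and the highest of Ucp3 and Cd36. Macrophage markers (11 of 14) summed to 2190 and 1490 in mdx and 1150 in mdx x utrn-/-, against 310 to 471 in carriers on mdx backgrounds, 395 in hDMD, and 332 and 1660 in wild-type 1 and 2. Adgre1, Itgam and Aif1, defining genes of the macrophage list, did not pass the filter. In wild-type 1 and 2, whose macrophage sums lay far apart, Rxrg was at 5.81 and 5.71. In the 3 mice without dystrophin, with sums of 1150 to 2190, Rxrg was at 4 to 4.92. The 2 wild-type mice also differed in sex and array brightness, and a tie between Rxrg and macrophage signal was not tested.

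Endothelial markers (10 of 14) summed to 653 and 1100 in mdx, 662 in mdx x utrn-/-, 570 to 842 in carriers on mdx backgrounds, 522 in hDMD, and 976 and 780 in wild-type 1 and 2, and were highest in the bright arrays. Slow and oxidative fibre markers (9 of 10) summed to 876 and 4300 in mdx, 3640 in mdx x utrn-/-, 1930 to 3520 in carriers on mdx backgrounds, 2580 in hDMD, and 4860 and 793 in wild-type 1 and 2. They thus differed more within wild-type and within mdx than between them. Their lowest sums were in wild-type 2, which had the most Ucp3, and in mdx 1.

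Among 6697 other probe sets with 1 gene name, those with profiles most like Rxrg over the 9 arrays were of Mstn, Rragd and Glo1. Likeness was the root mean square difference between profiles, each centred on its own mean, in log2 units. It was 0.44 for Mstn, the muscle growth inhibitor myostatin, and 0.46 for Rragd, a GTPase of lysosomal nutrient sensing, and for Glo1, which detoxifies methylglyoxal. Mstn was at 6.67 and 6.19 in mdx 1 and 2 and 6.12 in mdx x utrn-/-. It was at 7.73 and 8.27 in hDMD x mdx 1 and 2, 7.72 in hDMD x mdx x utrn-/-, 8.66 in hDMD, and 7.16 and 7.54 in wild-type 1 and 2. Being chosen for its likeness to Rxrg, it is no further evidence of a separation by dystrophin. The profiles most like Pdk4 were of Pla2g7, a lipid-cleaving enzyme of plasma and macrophages (0.59), Glo1 (0.60) and Itfg1 (0.61). Those most like Ucp3 were of Ighm, an immunoglobulin heavy chain (0.29), Nnat, an imprinted gene of nerve and fat (0.40), and Amy1, an amylase (0.48). All of these share the 9 arrays and their brightness, and the differences are to be read against an SD of 0.96 for Rxrg, 1.14 for Pdk4 and 0.90 for Ucp3.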

How the data were processed

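RNA from gastrocnemius of 9 mice was hybridised to 1 Affymetrix U74Av2 array each. The deposited table holds 1 linear intensity per probe set and array, some of them negative. The expression measure, software and scaling behind it were not given in the labels, so its scale and centring stay unknown. Values of the 12488 probe sets were quantile normalised over the 9 arrays, set to 0 where negative, and taken as log2(value + 16). The 66 control probe sets were left out. Probe sets whose mean lay above the 40th percentile were kept, 7453 in all. Differences were fitted with limma 3.58.1 in R 4.3.3 (moderated tests, Benjamini-Hochberg adjustment over all 7453, threshold 0.05), a genotype with 1 mouse being assumed to vary like the others. All differences with an adjusted p printed here come from limma fits.

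The array annotation gave 1 gene symbol to 10833 probe sets, several to 396 and lists none for 1193. Symbols were brought up to date through Entrez gene where RefSeq allowed, and loci and promoters are RefSeq's, in GRCm38.p6. A gene with several probe sets was counted by the one of highest mean. Genotypes are as labelled, and each mouse counts as 1 replicate. Depth has no meaning for arrays, and the number of mice limits the precision.

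The genes, the pathway and marker lists and the tests were chosen with earlier results of these data known. Named pathway genes are among the 3 of smallest p per list and comparison. Likeness was computed for Pdk4, Ucp3 and Rxrg, with 3 profiles each. Alternatives were no normalisation, scaling to the 75th percentile, no filter, pseudocounts of 1 and 64, an intensity trend, age as a covariate, array brightness as a block, fewer arrays in the fit, and each mouse left out.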

Additional observations from a re-analysis of the deposited data

Results flagged for a closer look

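Ucp3 in wild-type 1 was far from the other mice with dystrophin. Its level of 5.46 was the lowest of the 6, with the next at 7.04 and the highest at 7.74, so the gap took 0.693 of the range, above Dixon's critical value of 0.625. This was 1 of 22 groups of samples examined in this way, and chance marks about 1 in 20. Wild-type 1 was 1 of the 3 bright arrays and the only female. The other bright array with dystrophin, hDMD x mdx 1, was at 7.49. The part of brightness or sex in this value was not tested.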

How the results depend on the processing

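None of the 9 genes passed in any comparison under any alternative run. Of the recomputed differences, 881 kept their sign and 76 turned it. For Rxrg, Pdk4, Ucp3 and Cd36 none turned without against with dystrophin or between carriers and non-carriers on mdx backgrounds. In mdx against wild-type, signs of Pdk4 and Ucp3 did turn. The count of probe sets that passed without against with dystrophin, 9, was 0 on values as deposited, 2 with no filter, and 1 with a pseudocount of 1. It ran from 2 to 18 with 1 mouse left out, the highest without wild-type 1. It was 5 without hDMD x mdx 1 or hDMD x mdx x utrn-/-, 3 without mdx 1, and 2 without hDMD, hDMD x mdx 2 or mdx x utrn-/-. The count in carriers against non-carriers on mdx backgrounds, 0, was 1 with an intensity trend and 4 with brightness as a block.

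Signs turned as follows. On values as deposited, mdx against wild-type gave 0.07 for Ucp3 and -0.10 for Acadl, hDMD x mdx against mdx gave 0.68 for Acadl and 0.31 for Lpl 160083_at, and carriers against non-carriers gave 0.28 for Acadl. There, carriers against wild-type gave -0.13 for Pdk4, -0.26 for Rxrg, -0.14 for Acads 161469_r_at and -0.30 for Cd36. For Acadl, mdx against wild-type gave -0.08 with the 75th percentile and -0.01 with a pseudocount of 64, and hDMD x mdx against mdx gave 0.02 in both settings. With age as a covariate, mdx against wild-type gave -0.08 for Pdk4, 0.64 for Acads 161469_r_at and -0.69 for Acadl, and carriers against wild-type gave -0.21 for Cd36. With the block, carriers against wild-type gave 0.05 for Acadm and 0.21 for Acadl. In the dim arrays alone, the values were 0.12 for Acadl and 0.02 for Eci1 without against with dystrophin, and -0.18 for Eci1 in carriers against non-carriers. The cause was not tested.

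With 1 mouse left out in turn, these differences held both signs, given as the lowest and highest value. Without against with dystrophin they were -0.32 to 0.15 for Acadl, -0.08 to 0.41 for Lpl 160083_at and -0.39 to 0.12 for Lpl 95611_at. In mdx against wild-type they were -0.72 to 0.76 for Acadl, -1.10 to 0.14 for Acads 103401_at, -1.58 to 0.33 for Acads 161469_r_at, -0.33 to 0.24 for Lpl 160083_at, -0.85 to 1.01 for Pdk4 and -1.27 to 1 for Ucp3. In hDMD x mdx against mdx they were -0.80 to 0.76 for Acadl, -0.05 to 0.47 for Acadm, -0.21 to 0.92 for Acads 103401_at, -0.72 to 2.07 for Acads 161469_r_at, -0.80 to 0.26 for Lpl 160083_at and -0.19 to 0.74 for Lpl 95611_at. In carriers against non-carriers they were -0.64 to 0.26 for Acadl, -0.19 to 0.46 for Acads 103401_at, -0.07 to 0.59 for Eci1, -0.50 to 0.11 for Lpl 160083_at and -0.48 to 0.28 for Lpl 95611_at. In carriers against wild-type they were -0.96 to 0.52 for Acadl, -0.15 to 0.01 for Acadm, -1.06 to 0.18 for Acads 103401_at, -0.17 to 1.74 for Acads 161469_r_at, -0.29 to 0.47 for Cd36, -0.20 to 0.10 for Eci1, -0.13 to 1.39 for Pdk4 and -0.40 to 1.88 for Ucp3. Others kept their sign but moved by over 1.5 times, such as Acads 161469_r_at without against with dystrophin (-1.23 to -0.44) and Cd36 in hDMD x mdx against mdx (0.17 to 0.97). Those for Rxrg kept their sign in all 5 comparisons, at -1.99 to -1.52 without against with dystrophin.

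No paired analysis was possible because the labels give no replicate numbers shared between genotypes. Rxrg without against with dystrophin ran from -4.26 to -0.72 over the other alternatives, with a limma adjusted p no lower than 0.125. The precision is limited by 1 mouse in 3 of 6 genotypes and by 2 in the others. Values near the floor carry little information on size.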
